A study of Mus musculus with 7 samples.

Results

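The genes of the angiogenic balance examined here are the VEGF ligands Vegfa, Vegfb, Vegfc and Pgf, the receptors Kdr and Flt1, the co-receptors Nrp1 and Nrp2, and the secreted inhibitors Serpinf1, which encodes pigment epithelium-derived factor (PEDF), and Thbs1, which encodes thrombospondin 1. They were taken by symbol from a count table of 21861 rows, where all 10 of 10 were found, each on 1 row. The libraries came from the retinal pigment epithelium (RPE) of aged mice, collected 12 weeks after treatment with an adeno-associated virus (AAV) vector. AAV-GFP carried green fluorescent protein and gave 3 libraries, and AAV-GSTA4 carried the glutathione transferase GSTA4 and gave 4. The promoter of the vectors, the strain and sex of the mice and their exact age are not given in the sources used here, and no untreated eyes were analysed here. Nothing states that each library of a group came from a separate animal. Y-linked genes were present in some libraries of each group and almost absent in others, so a group's libraries did not all come from the same animal. The p-values measure the spread between these samples, part of which may be technical.

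The RPE secretes VEGF-A towards the choroid, where it keeps the fenestrated capillaries of the choriocapillaris alive through KDR (VEGF receptor 2), the main signalling receptor of endothelial cells. FLT1 (VEGF receptor 1) binds VEGF-A, VEGF-B and placental growth factor and limits signalling by taking up ligand, and the neuropilins present VEGF to the receptors and also bind class 3 semaphorins. PEDF and thrombospondin 1 oppose vessel growth, and an excess of VEGF-A over its inhibitors is the setting in which drugs against VEGF are used in neovascular macular degeneration.

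In these data the groups did not overlap for 1 of the 10 genes, a share close to the 12.0% found among all genes tested. That gene, Thbs1, was 2.41-fold higher on average in AAV-GSTA4, in 4 of 4 libraries, but it did not pass after adjustment over all genes. Vegfa, Vegfb, Serpinf1, Nrp1 and Nrp2 had log2 fold changes between -0.21 and -0.06, each smaller than its standard error. Kdr and Flt1 were high in 1 AAV-GFP library, and their direction turned when that library was left out.

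Libraries held 15329181 to 28998964 counts, and a level of 3 counts, taken as the detection floor, was 0.111 to 0.176 CPM, the count relative to library size after scaling by the trimmed mean of M values (TMM). The vector labels were checked on the hGSTA4 and d2EGFP rows. The hGSTA4 row had 1 to 3 counts in AAV-GFP and 45 to 5239 counts in AAV-GSTA4, lowest in replicate 3. The d2EGFP row had 4.61 to 153 CPM in AAV-GFP (lowest in replicate 1) and 0.411 to 8.57 CPM in AAV-GSTA4 (highest in replicate 1). The groups overlapped on d2EGFP, so only hGSTA4 separated the vectors. RPE transcripts were present in every library, as none of 15 RPE markers was at 0. Rpe65, the retinoid isomerase of the RPE, lay between 1765 and 11820 CPM. No rod photoreceptor or endothelial marker of the lists was at 0 either, so this does not show how pure the samples were. In AAV-GSTA4 replicate 2 summed lens markers (132340 CPM) exceeded summed RPE markers (63281 CPM). AAV-GFP replicate 3 was the outlying library, with a mean r to the rest of 0.838 in log2 CPM where the remaining libraries reached 0.910 to 0.926. It had the lowest summed RPE markers (24052 CPM, against 57043 to 114298) and the highest summed rod photoreceptor markers (41253 CPM, against 8384 to 25878). Log2 fold changes without it are also given for Vegfc, Pgf, Kdr, Flt1, Serpinf1, Sema3c and Nos3. The other pathway genes named below are not given without it and may also depend on it.

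Promoter sequences are shown for the ligand and the inhibitor that define the balance, Vegfa and Serpinf1, and for the receptors that stood high together, Kdr and Flt1. They are the bases before the RefSeq start on GRCm38.p6, read 5′ to 3′ on the gene's strand (the minus strand for all 4), without bases that lie inside the gene as GENCODE annotates it. Capitals mark the GC box GGGCGG, the core of the hypoxia response element ACGTG and the TATA box TATAAA, each searched on both strands.
Vegfa, chr17:46032378-46032627: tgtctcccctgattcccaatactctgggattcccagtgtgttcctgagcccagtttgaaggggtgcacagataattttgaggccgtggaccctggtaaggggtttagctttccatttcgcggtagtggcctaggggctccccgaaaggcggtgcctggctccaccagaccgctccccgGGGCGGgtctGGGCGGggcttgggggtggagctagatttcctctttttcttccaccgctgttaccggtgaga
Serpinf1, chr11:75422702-75422873: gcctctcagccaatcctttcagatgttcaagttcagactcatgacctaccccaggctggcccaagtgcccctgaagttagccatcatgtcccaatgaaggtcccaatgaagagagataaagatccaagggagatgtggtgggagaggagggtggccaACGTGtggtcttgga
Kdr, chr5:75978459-75978705: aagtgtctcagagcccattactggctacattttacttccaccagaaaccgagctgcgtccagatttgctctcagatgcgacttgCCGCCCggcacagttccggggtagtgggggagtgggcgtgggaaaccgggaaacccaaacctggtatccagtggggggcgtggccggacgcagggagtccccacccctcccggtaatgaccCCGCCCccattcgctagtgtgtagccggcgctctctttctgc
Flt1, chr5:147726012-147726261: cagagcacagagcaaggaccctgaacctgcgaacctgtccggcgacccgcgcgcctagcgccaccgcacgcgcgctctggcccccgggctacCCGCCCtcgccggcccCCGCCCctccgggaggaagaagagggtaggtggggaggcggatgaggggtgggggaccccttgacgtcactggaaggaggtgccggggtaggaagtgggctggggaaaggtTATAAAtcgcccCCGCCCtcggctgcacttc
Of the 10 genes, 9 had an entry, all but Thbs1. Motifs were counted on all 250 bases before the start, also on those inside the gene as GENCODE annotates it. The window lay wholly inside the gene for Pgf and Nrp1 and in part for Serpinf1, Nrp2 and Kdr. The GC box was found in 8 of the 9, all but Serpinf1, and in 32.7% of 32851 promoters of the same length. The ACGTG form of the hypoxia core was found in Serpinf1 alone among the 9, against 16.6% of all promoters. Other forms of that core were not searched, and GCGTG stands in the Kdr sequence above. The TATA box was found in Flt1 alone, against 12.4%. Sites further upstream than 250 bases were not searched, so a gene without a match here may have one there. No match of one motif overlapped a match of another in these windows. The G and C content was 51.6% for Serpinf1, 59.2% for Vegfa, 61.6% for Kdr and 70.4% for Flt1, against a median of 52.4%. These matches are a description of the letters and were not tied to any measured binding.

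Levels can be compared between genes only per length, for which CPM was divided by the kilobases of each gene's combined GENCODE exons. Thbs1 was the most abundant of the 10 in 7 of 7 libraries, with a median of 85.4 CPM per kilobase. Its lowest library, at 37.3, lay above the highest library of Vegfa, at 27.2. Vegfa followed with a median of 14.6 CPM per kilobase and held place 2 or 3 in every library. Serpinf1 (9.36) and Vegfb (7.44) came next, then Pgf (3.47) and Vegfc (2.63), so that Vegfa was the leading VEGF transcript on this scale. The co-receptors Nrp2 (2.29) and Nrp1 (1.45) and the receptors Kdr (1.54) and Flt1 (0.456) were lowest. Below Thbs1, the ranges of all neighbours in this order overlapped across the libraries. Relative to their lowest library, Vegfc and Kdr had the widest ranges, 0.157 to 4.57 and 1.23 to 11.5 CPM per kilobase, and AAV-GFP replicate 3 gave the lowest value of Vegfc and the highest of Kdr.

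**Figure D1:**
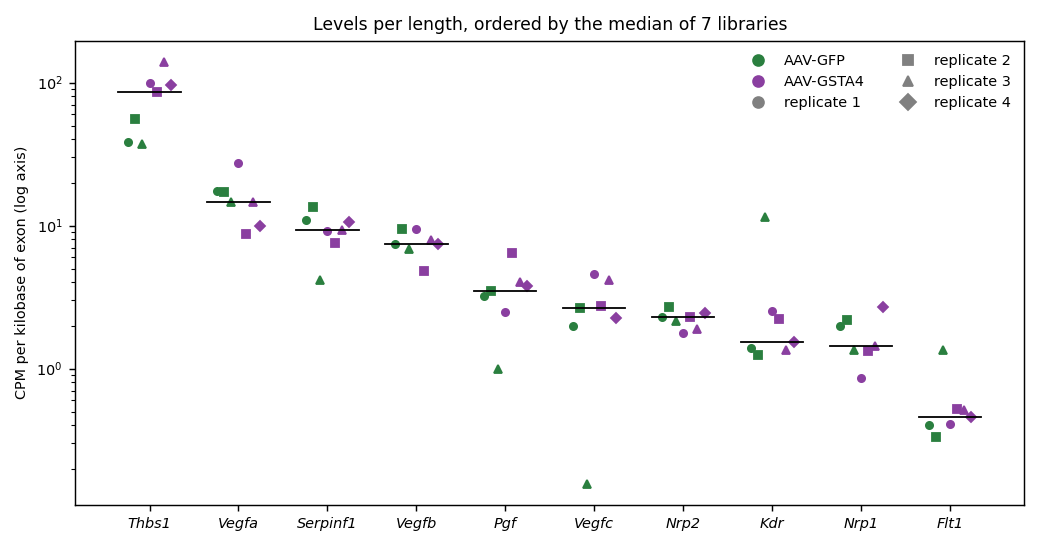
CPM per kilobase of combined exon on a log axis for the 10 genes, ordered by the median of the 7 libraries (black line). Green symbols are AAV-GFP and purple symbols AAV-GSTA4 libraries, with the shape giving the replicate. Thbs1 lies above all others, and the green triangle of AAV-GFP replicate 3 departs from the rest for Serpinf1, Vegfc, Pgf, Kdr and Flt1.

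The first comparison asked whether GSTA4 in the aged RPE changed the ligands. Vegfa (chromosome 17, 46016993 to 46032369, minus strand, GRCm38) had 74.7, 74.1 and 62.6 CPM in AAV-GFP replicates 1 to 3 and 117, 37.4, 62.4 and 42.3 CPM in AAV-GSTA4 replicates 1 to 4. The AAV-GFP libraries lay close together, whereas AAV-GSTA4 held both the highest and the 3 lowest libraries. The AAV-GFP mean was 70.5 ± 6.82 CPM (SD, n = 3) and the AAV-GSTA4 mean 64.7 ± 36.2 CPM (SD, n = 4). This gave a log2 fold change (AAV-GSTA4 over AAV-GFP) of -0.12 ± 0.37 (SE; adjusted p = 0.917, edgeR quasi-likelihood test). Counts per gene do not separate the splice forms of VEGF-A, so a shift between its soluble and matrix-bound forms would not show here.

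Vegfb, a ligand of FLT1, was as even between the groups. It had 11.9, 15.1 and 10.9 CPM in AAV-GFP and 15.2, 7.72, 12.7 and 11.9 CPM in AAV-GSTA4, with a log2 fold change of -0.09 ± 0.31 (SE). Both VEGF-A and VEGF-B transcripts were lowest in AAV-GSTA4 replicate 2, the library with the highest summed lens markers (132340 CPM, against 3199 to 27880 in the others); the part of that material in these levels was not tested. For Vegfb edgeR's adjusted p-value was 0.932.

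Vegfc, the ligand of lymphatic endothelium, had 4.89, 6.44 and 0.384 CPM in AAV-GFP and 11.2, 6.66, 10.2 and 5.57 CPM in AAV-GSTA4. Most AAV-GSTA4 libraries were above all AAV-GFP libraries, but replicate 4 lay below AAV-GFP replicate 2, so the groups overlapped. The low value of AAV-GFP replicate 3 rested on 8 counts. The log2 fold change was 1.10 ± 0.73 (SE; adjusted p = 0.561 in edgeR's test), and 0.57 ± 0.40 (SE) without that library. It was 0.20 ± 0.59 (SE) with the RPE covariate and 0.52 ± 1.11 (SE) with the rod covariate, each a score of that cell type's markers per library.

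Pgf, which encodes placental growth factor, showed the same layout. It had 9.36, 10.1 and 2.88 CPM in AAV-GFP and 7.26, 18.6, 11.7 and 10.9 CPM in AAV-GSTA4. AAV-GFP replicate 3 was again lowest, at 60 counts, and AAV-GSTA4 replicate 1 lay below the other AAV-GFP libraries. The log2 fold change was 0.70 ± 0.48 (SE; adjusted p = 0.576 in edgeR's test), and 0.32 ± 0.38 (SE) without AAV-GFP replicate 3.

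**Figure D2:**
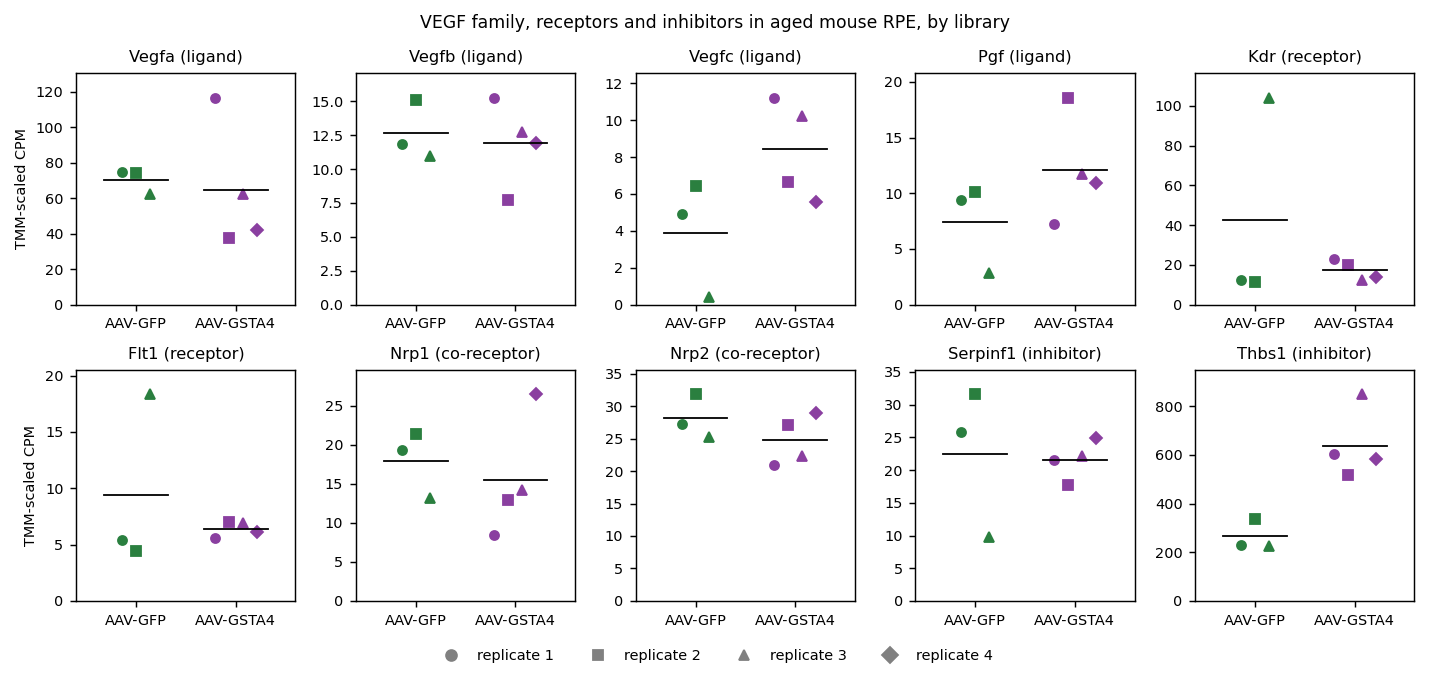
TMM-scaled CPM of each gene by library on linear axes that start at 0, with AAV-GFP in green, AAV-GSTA4 in purple, the replicate as shape and the group mean as a black line. Thbs1 is the panel in which all AAV-GSTA4 libraries (519 to 848 CPM) lie above all AAV-GFP libraries (227 to 337 CPM), and in the Kdr and Flt1 panels the AAV-GFP mean is raised by replicate 3.

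The receptors are made mainly by endothelial cells, which the choroid beside the RPE holds in large numbers. In bulk samples, fewer cells of a type and less RNA per cell cannot be told apart. Kdr (chromosome 5, 75932827 to 75978458, minus strand) had 12.6, 11.1 and 104 CPM in AAV-GFP and 22.8, 19.9, 12.2 and 13.9 CPM in AAV-GSTA4. AAV-GFP replicate 3, with 2166 counts, was 4.56-fold above the next library, and the other AAV-GFP libraries were at the low end of the AAV-GSTA4 range. The log2 fold change was -1.31 ± 0.70 (SE; adjusted p = 0.480 in edgeR's test) with all libraries and 0.54 ± 0.32 (SE; adjusted p = 0.511) without AAV-GFP replicate 3, so the sign rested on 1 library.

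Flt1 (chromosome 5, 147561604 to 147726011, minus strand) had 5.45, 4.48 and 18.3 CPM in AAV-GFP and 5.57, 7.05, 6.93 and 6.16 CPM in AAV-GSTA4. The high library was the same as for Kdr, at 2.60-fold above the next. Without it every AAV-GSTA4 library lay above both remaining AAV-GFP libraries, by small margins, and the log2 fold change went from -0.55 ± 0.49 (SE; adjusted p = 0.679 in edgeR's test) to 0.38 ± 0.35 (SE; adjusted p = 0.674). The soluble decoy form of FLT1 and the full receptor share a gene and were counted together.

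Endothelial markers followed the receptors in part. The 15 markers of the list summed to 101 CPM in AAV-GFP replicate 3, 1.61-fold above the next library, and to 35.6 and 62.6 CPM in the other AAV-GFP libraries and 42.0 to 51.6 CPM in AAV-GSTA4. None of the 15 was at 0 in any library, and 3 had a positive and 12 a negative log2 fold change. AAV-GFP replicate 3 was highest for 8 of the 15. Tek and Robo4 went the other way, higher in every AAV-GSTA4 library than in any AAV-GFP library. The groups of 12.0% of all genes did not overlap. Robo4 was near the floor, at 0.231 to 0.288 CPM in AAV-GFP. Tek (1.26 ± 0.54, SE) was the only 1 of the 15 at an unadjusted p-value under 0.05, where 11.9% of all genes had one. Vwf, which encodes von Willebrand factor, was at 20.7 CPM in AAV-GFP replicate 3 and at 1.21 to 3.99 CPM elsewhere, whereas Emcn (endomucin), at 6.28 CPM there, was within the range of the others (3.17 to 11.5). Kdr was thus raised more than the summed endothelial markers in that library, and the part of endothelial cells or of retina in its level was not tested.

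The co-receptors differed between the vectors by less than their standard errors. Nrp1 had 19.3, 21.3 and 13.2 CPM in AAV-GFP and 8.46, 12.9, 14.2 and 26.4 CPM in AAV-GSTA4, which again held both the lowest and the highest library. Between the vectors it differed by -0.21 ± 0.39 in log2 (SE; adjusted p = 0.855 in edgeR's test), and by -1.14 ± 0.53 with the rod covariate and -0.65 ± 0.44 with the RPE covariate. By the ratio of its highest to its lowest library Nrp2 had the narrowest range of the 10, with 27.2, 31.8 and 25.3 CPM in AAV-GFP and 20.9, 27.1, 22.4 and 28.9 CPM in AAV-GSTA4. On the log2 scale this was a difference of -0.18 ± 0.22 (SE; adjusted p = 0.772 in edgeR's test).

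Among the inhibitors, Thbs1 (chromosome 2, 118111876 to 118127133, plus strand) had 232, 337 and 227 CPM in AAV-GFP and 604, 519, 848 and 582 CPM in AAV-GSTA4. Every AAV-GSTA4 library lay above every AAV-GFP library, with a gap between 337 and 519 CPM. AAV-GFP averaged 265 ± 62.3 CPM (SD, n = 3), AAV-GSTA4 averaged 638 ± 144 CPM (SD, n = 4), and the fitted log2 fold change was 1.27 ± 0.28 (SE). The unadjusted p-value was 0.00135 in edgeR's test and 0.363 after adjustment, so Thbs1 did not pass the threshold of 0.05. DESeq2 gave 1.29 with an adjusted p-value of 0.00598 and called 172 genes in all (0.866% of the table it was given). Limma-voom with quality weights gave 1.13 with an adjusted p-value of 0.0589, or 0.0456 with the robust option, which called 0.968% of genes. Over all alternatives the adjusted p-values ran from 0.00598 to 0.865.

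Thbs1 was the 1 of 10 genes with an unadjusted p-value under 0.05, all of them tested, where 11.9% of the 15075 genes tested had one (5.27% higher and 6.63% lower in AAV-GSTA4). It was also the 1 of 10 whose groups did not overlap, where the groups of 12.0% of all genes did not (6.44% higher and 5.61% lower). Both counts are close to those backgrounds. After adjustment 0 of 10 passed in edgeR's test, as did 0% of all genes. The median log2 fold change of the 10 was -0.11, against -0.07 for all genes tested, with 3 genes above 0 and 7 below, where 44.6% of all genes were above.

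Within AAV-GSTA4, Thbs1 and the transgene stood in a different order. The library with the least hGSTA4, replicate 3 at 2.64 CPM, had the most Thbs1, and replicate 2 with the most hGSTA4, at 251 CPM, had the least. Y-linked genes were at 306 to 464 CPM in AAV-GFP replicate 1 and AAV-GSTA4 replicates 3 and 4 and between 0.0772 and 2.83 CPM elsewhere. Where Y-linked counts were present, Thbs1 had 232 CPM in the 1 AAV-GFP library and 848 and 582 CPM in AAV-GSTA4, and elsewhere 337 and 227 against 604 and 519 CPM; this order follows from groups that do not overlap and is no further check. With the Y-linked level as a covariate, chosen after seeing the data, the log2 fold change was 1.25 ± 0.30 (SE; adjusted p = 0.473 in edgeR's test). Leaving out each library in turn gave log2 fold changes of 1.11 to 1.48.

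RPE markers were also mostly higher in AAV-GSTA4, with 13 of 15 above 0 in log2 fold change, where 44.6% of all genes were. Their sums overlapped, at 24052 to 72653 CPM in AAV-GFP and 63281 to 114298 CPM in AAV-GSTA4. Rod markers were lower, with 13 of 13 below 0 and sums of 15432 to 41253 and 8384 to 14712 CPM. No gene of either list passed after adjustment. Per 1000 RPE marker counts, Thbs1 had 3.19, 5.91 and 9.43 counts in AAV-GFP and 7.09, 8.20, 7.42 and 6.19 in AAV-GSTA4, so on that scale the groups overlapped. With the RPE marker score as a covariate, a fit chosen after seeing the data, the log2 fold change of Thbs1 was 1.04 ± 0.27 (SE; adjusted p = 0.331 in edgeR's test). With the rod score it was 1.41 ± 0.42 (SE; adjusted p = 0.449 in edgeR's test). Summed rod markers did not overlap between the groups, so the rod covariate, wherever used here, can hardly be told apart from the vector.

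Serpinf1 (chromosome 11, 75409769 to 75422701, minus strand), the PEDF gene, had 25.8, 31.6 and 9.83 CPM in AAV-GFP and 21.5, 17.7, 22.1 and 24.8 CPM in AAV-GSTA4. AAV-GFP replicate 3 was lowest by far, at 205 counts, and the other AAV-GFP libraries were the highest. The AAV-GFP mean was 22.4 ± 11.3 CPM (SD, n = 3) and the AAV-GSTA4 mean 21.5 ± 2.92 CPM (SD, n = 4), with a log2 fold change of -0.06 ± 0.36 (SE; adjusted p = 0.967 in edgeR's test). Without AAV-GFP replicate 3 it was -0.41 ± 0.23 (SE; adjusted p = 0.478).

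The RPE marker sums were mostly higher in AAV-GSTA4, with overlap, while Serpinf1 was level, so the ratio of both carries the difference in the markers. Serpinf1 had 0.356, 0.553 and 0.409 counts per 1000 RPE marker counts in AAV-GFP and 0.253, 0.280, 0.193 and 0.264 in AAV-GSTA4, and the groups did not overlap; on this scale the groups of 21.8% of all genes did not, and the ratio is no separate result. With the RPE marker score as a covariate, the log2 fold change was -0.65 ± 0.26 (SE), and edgeR's unadjusted p-value was 0.0353 (adjusted p = 0.409). In the same fit Kdr had a log2 fold change of 0.97 ± 0.31 (SE), and edgeR's unadjusted p-value was 0.0116 (adjusted p = 0.337). These 2 genes and Thbs1 were the 3 of 10 at an unadjusted p-value under 0.05 there, where 11.4% of all genes were, and none passed after adjustment.

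**Figure D3:**
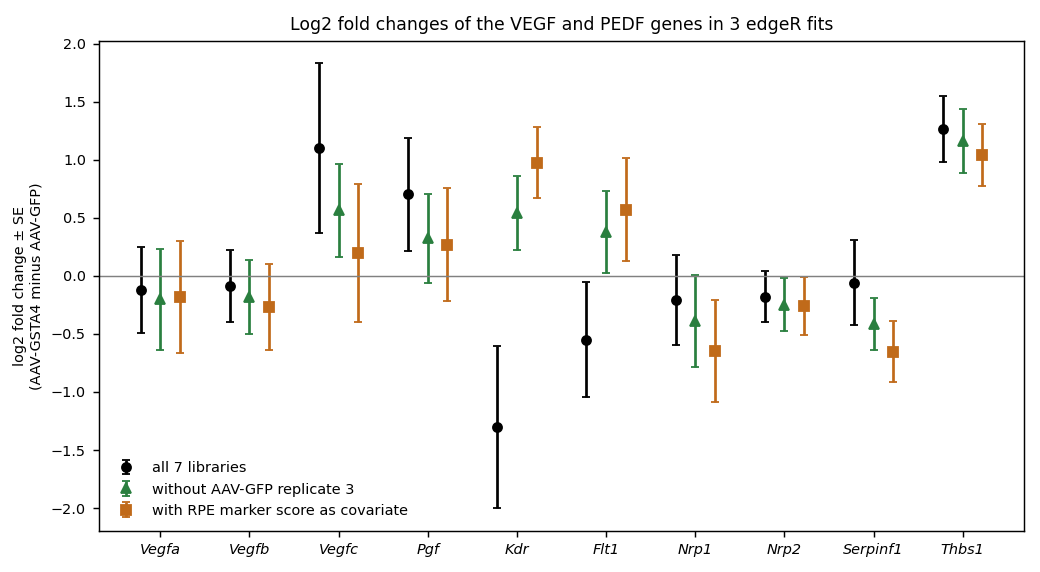
Log2 fold change between the vectors (AAV-GSTA4 over AAV-GFP) with its standard error for the 10 genes in 3 edgeR fits: all 7 libraries (black), without AAV-GFP replicate 3 (green) and with the RPE marker score as covariate (orange). Thbs1 stays between 1.04 and 1.27, Kdr goes from -1.31 to 0.54 and 0.97, and Serpinf1 goes from -0.06 to -0.41 and -0.65.

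Ratios of counts within a library do not depend on how libraries are scaled. Thbs1 per Serpinf1, the ratio of both inhibitors, was 8.97, 10.7 and 23.1 in AAV-GFP and 28.1, 29.2, 38.4 and 23.4 in AAV-GSTA4, without overlap but with AAV-GFP replicate 3 next to AAV-GSTA4 replicate 4. Vegfa per Thbs1 was 0.323, 0.220 and 0.276 in AAV-GFP and 0.193, 0.0722, 0.0736 and 0.0726 in AAV-GSTA4, also without overlap. As Thbs1 is in both ratios, this is no separate result: the groups of 60.3% of all genes did not overlap when set against Thbs1. Vegfa per Serpinf1, the ratio of VEGF-A to PEDF transcripts, was 2.89, 2.35 and 6.37 in AAV-GFP and 5.42, 2.11, 2.83 and 1.70 in AAV-GSTA4. On that ratio the groups overlapped over most of their range, and the highest library of each was the one with low Serpinf1 in AAV-GFP (replicate 3) and the one with high Vegfa in AAV-GSTA4 (replicate 1).

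**Figure D4:**
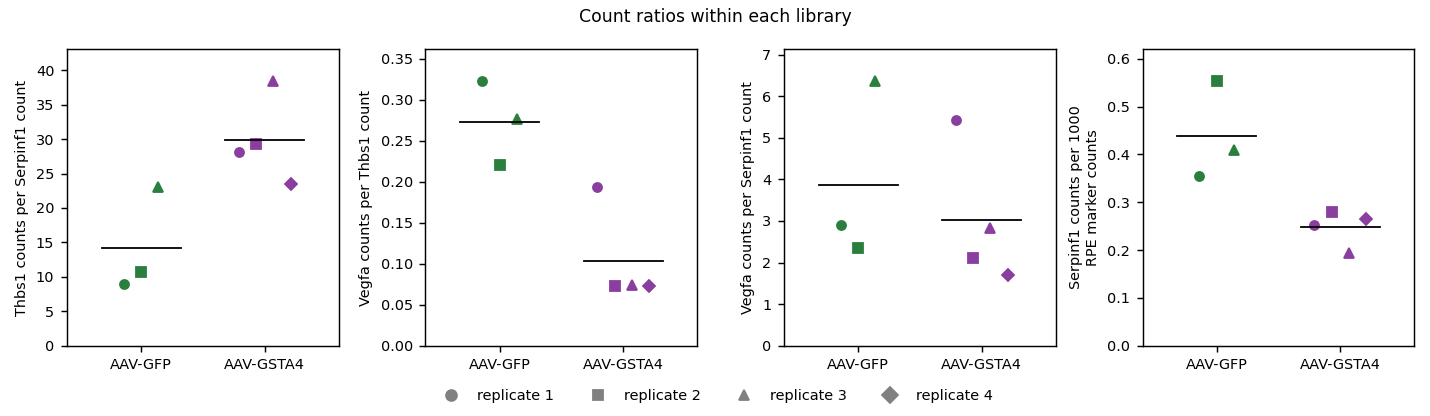
Count ratios within each library, on linear axes from 0, with the group mean as a black line and the replicate as shape. AAV-GSTA4 lies above AAV-GFP for Thbs1 per Serpinf1 (23.4 to 38.4 against 8.97 to 23.1), below it for Vegfa per Thbs1 and for Serpinf1 per 1000 RPE marker counts, and overlaps it for Vegfa per Serpinf1.

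Other genes of these pathways were taken from 4 lists. A list of 17 genes held receptors of PEDF and thrombospondin, other thrombospondins and related genes, not all of them inhibitors of angiogenesis. Of these, 16 were tested and 0 passed after adjustment. At an unadjusted p-value under 0.05, 4 were higher and 1 lower in AAV-GSTA4, where 5.27% of all genes were higher and 6.63% lower. The median log2 fold change of the list was 0.16, against -0.07 for all genes. Timp3, an inhibitor of metalloproteinases that also blocks VEGF at KDR, averaged 2375 ± 750 CPM (SD, n = 3) under AAV-GFP and 5282 ± 1261 CPM (SD, n = 4) under AAV-GSTA4, with a log2 fold change of 1.15 ± 0.36 (SE; adjusted p = 0.363 in edgeR's test). Col4a3, whose collagen IV chain releases the inhibitor tumstatin, averaged 176 ± 8.57 CPM under AAV-GFP (SD, n = 3) and 339 ± 74.6 CPM under AAV-GSTA4 (SD, n = 4) without overlap (log2 fold change 0.94 ± 0.25, SE; adjusted p = 0.363 in edgeR's test). Thbs4, a thrombospondin of another subfamily, averaged 53.4 ± 18.8 CPM under AAV-GFP (SD, n = 3) and 105 ± 29.3 CPM under AAV-GSTA4 (SD, n = 4), also without overlap. The other genes at that level, named after their values were seen, were Col18a1, the source of endostatin (log2 fold change 0.73 ± 0.32, SE), and Adamts1, a thrombospondin-repeat protease (-0.92 ± 0.41, SE). None of the receptors passed an unadjusted p-value under 0.05: the thrombospondin receptors Cd36 and Cd47 had log2 fold changes of -0.72 and -0.15, and the PEDF receptor Pnpla2 had 0.17. The PEDF receptor Plxdc1, at low levels, had 1.66 to 4.41 CPM in AAV-GFP and 0.590 to 1.49 CPM in AAV-GSTA4 without overlap (-1.14 ± 0.64, SE). With the RPE marker score as a covariate the log2 fold changes were 0.74 ± 0.24 for Timp3, 0.80 ± 0.25 for Col4a3 and 0.54 ± 0.29 for Thbs4 (SE), so those of Timp3 and Thbs4 were smaller by over 1.5 times.

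Of 21 further genes of the VEGF and semaphorin pathway, all were tested, 0 passed, and 2 were higher and 0 lower at an unadjusted p-value under 0.05, near the 11.9% of all genes, with a median of 0.09. Both were class 3 semaphorins, secreted ligands that bind neuropilins and plexins. Sema3b had 160, 166 and 86.2 CPM in AAV-GFP and 338, 209, 311 and 239 CPM in AAV-GSTA4 (log2 fold change 0.99 ± 0.30, SE). Sema3c had 528, 330 and 143 CPM and 666, 564, 816 and 685 CPM (1.03 ± 0.40, SE). The groups of both did not overlap, and edgeR's adjusted p-values were 0.363 for Sema3b and 0.383 for Sema3c. Sema3c was lowest in AAV-GFP replicate 3, the library with the fewest RPE and most rod marker counts, and had 0.68 ± 0.25 (SE) without it, 0.40 ± 0.20 with the RPE covariate and 0.28 ± 0.44 with the rod covariate. Sema3b had 0.61 ± 0.25 (SE) with the RPE covariate. Nos3, the endothelial nitric oxide synthase downstream of KDR, had -1.49 ± 0.69 (SE) and, like Kdr, was highest in AAV-GFP replicate 3 (8.64 CPM, against 0.719 to 3.35). Without that library Nos3 had -0.56 ± 0.65 (SE). The remaining VEGF ligand, Vegfd, was near the floor, at 0.192 to 1.92 CPM, and Flt4, the receptor of VEGF-C, had 1.505 to 3.98 CPM in AAV-GFP and 0.763 to 1.25 CPM in AAV-GSTA4, lower without overlap (-1.42 ± 0.66, SE; adjusted p = 0.433 in edgeR's test).

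The hypoxia response list addressed the main inducers of Vegfa. Of its 20 genes, all tested, 0 passed, 2 were higher and 0 lower at an unadjusted p-value under 0.05, again near the background of 11.9%, and the median was -0.08. Hif1a, the oxygen-regulated transcription factor, had 425 to 461 CPM in AAV-GFP and 339 to 404 CPM in AAV-GSTA4, lower without overlap. Its log2 fold change was -0.27 ± 0.21 (SE; adjusted p = 0.631 in edgeR's test). Epas1, which encodes HIF-2 alpha, had 226, 236 and 245 CPM in AAV-GFP and 658, 178, 599 and 490 CPM in AAV-GSTA4, so that 3 of 4 libraries were above and replicate 2 was below all AAV-GFP libraries (1.03 ± 0.40, SE; adjusted p = 0.383 in edgeR's test). Slc2a1, the glucose transporter that is both a HIF target and the main transporter of the RPE, averaged 448 ± 69.2 CPM under AAV-GFP (SD, n = 3) and 755 ± 164 CPM under AAV-GSTA4 (SD, n = 4) without overlap. Adm, another HIF target, averaged 4.39 ± 1.28 CPM under AAV-GFP (SD, n = 3) and 1.92 ± 0.943 CPM under AAV-GSTA4 (SD, n = 4), with overlap. Replicate 2 of AAV-GSTA4 was lowest for both Epas1 and Vegfa within its group.

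Among 21 other angiogenic factors and their receptors, 20 were tested, 0 passed, and 4 were higher and 3 lower at an unadjusted p-value under 0.05, beside 5.27% and 6.63% of all genes, with a median of -0.14. Pdgfrb, the receptor of pericytes, averaged 8.14 ± 4.04 CPM under AAV-GFP (SD, n = 3) and 20.8 ± 9.43 CPM under AAV-GSTA4 (SD, n = 4) without overlap. Angptl4, a secreted factor induced by hypoxia and lipids, averaged 6.89 ± 2.26 CPM under AAV-GFP (SD, n = 3) and 14.6 ± 5.30 CPM under AAV-GSTA4 (SD, n = 4), with overlap. Angpt1, the ligand of the Tie2 receptor that stabilises vessels, was at 10.9, 8.95 and 6.33 CPM in AAV-GFP and at 3.26, 5.27, 3.11 and 5.64 CPM in AAV-GSTA4, below all AAV-GFP libraries, with a log2 fold change of -1.01 ± 0.39 (SE; adjusted p = 0.380 in edgeR's test). Tek (Tie2) and Met, both receptors, had 1.26 and 0.88, and Hgf, the ligand of MET, and Cxcl12, a chemokine, had -1.34 and -0.68; these 4 were named after their values were seen.

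**Figure D5:**
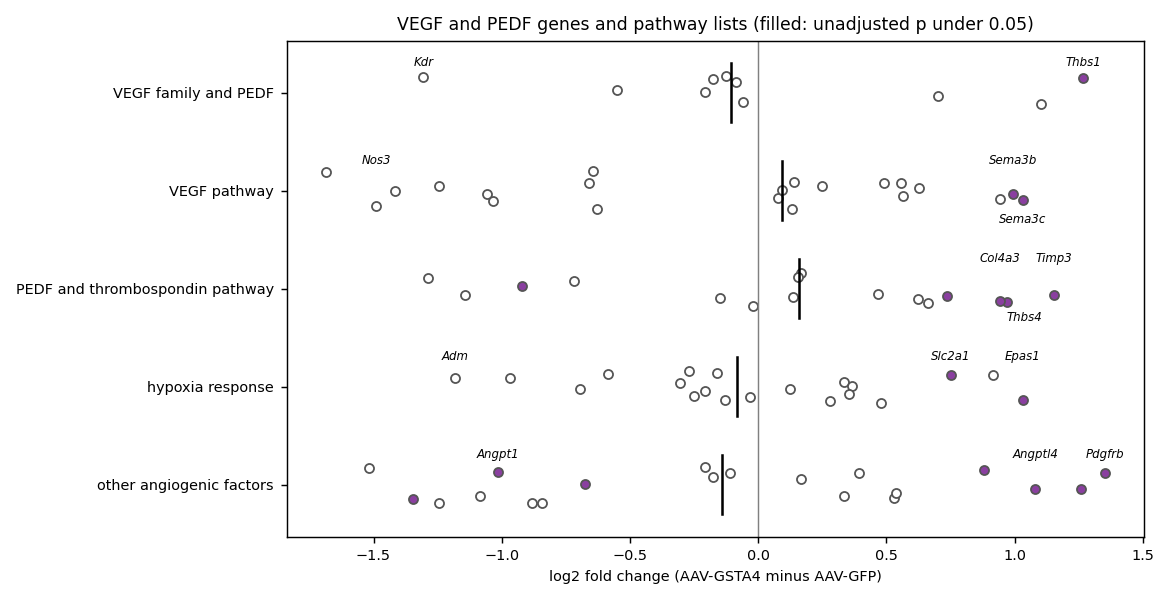
Log2 fold change between the vectors (AAV-GSTA4 over AAV-GFP) for the 10 genes and the tested genes of the 4 pathway lists, 1 point per gene with the vertical scatter carrying no value. Filled points have an unadjusted p-value under 0.05, black lines are medians (-0.11, 0.09, 0.16, -0.08 and -0.14 from top to bottom), and no point passed after adjustment.

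The genes with the most similar pattern over the 7 libraries were sought for Vegfa, Serpinf1 and Kdr by Pearson correlation of log2 CPM among 7540 other genes, as a description of libraries that share composition. For Vegfa they were Rnf44 (r = 0.971), Lrp10 (0.952) and Chmp7 (0.941), and the values were 0.972, 0.952 and 0.965 without AAV-GFP replicate 3. For Serpinf1 they were Gstk1 (0.979), Fbxo6 (0.977) and Ndufb2 (0.974), with 0.914, 0.909 and 0.906 without that library. For Kdr they included Btbd7 (0.992) and Plcd3 (0.984), with 0.948 and 0.852 without it. Plcd3 had 61.6 CPM in AAV-GFP replicate 3 and 8.51 to 14.2 CPM elsewhere, the layout of Kdr.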

How the data were processed

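The authors deposited 1 table of raw read counts per gene symbol for 7 libraries; STAR 2.7.1a, featureCounts 1.6.2 and the builds GRCm38/mm10 and GRCh38/hg38 are named in the submitters' processing notes. The annotation release, strand setting and treatment of multi-mapping reads are not given in the sources used here. Per the labels' protocols, polyadenylated RNA was turned into full-length cDNA by template switching and fragmented by a transposase. The labels mention no molecular identifiers, and the detection floor covers counting error only. Columns were matched to samples by library name, and replicates are numbered by sample title.

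Counts were fitted over the whole table with edgeR 4.0.16 (R 4.3.3): all 7 libraries, vector as the only factor, TMM scaling, the default expression filter, robust quasi-likelihood F-test and Benjamini-Hochberg adjustment over the 15075 genes tested, at a threshold of 0.05. Standard errors were derived from each fold change and its F statistic. Log2 CPM used a prior count of 2. The code was tested on simulated counts. No 2 libraries agreed within sampling noise, as the lowest chi-square per gene over all pairs was 57.5.

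Alternatives were other scalings and filters, replicate blocks, rod, RPE and Y-linked covariates, DESeq2 1.42.0, limma-voom (limma 3.58.1) and each library left out. The RPE and Y-linked covariates and the robust limma-voom fit were chosen after seeing the data. Genes and lists were chosen with earlier results of these data known. All 10 genes were named, and from each pathway list the 3 genes with the smallest p-values; other names are stated as such. For similar patterns, the 3 genes with the highest r among those averaging at least 4 in log2 CPM were taken; 1 of them is not reported here. Libraries of equal replicate number were little alike, which cannot exclude that they were paired. Correlations of their deviations from the group means were -0.09, 3.3e-05 and 0.01 by title and -0.09, 0.01 and -0.13 by library name. Only for number 3 by library name was the same-numbered AAV-GSTA4 library the closest to the AAV-GFP library.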

Additional observations from a re-analysis of the deposited data

Results flagged for a closer look

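Of 44 results examined for 1 library far from the other 3 of AAV-GSTA4, 2 stood out, where chance flags about 1 in 20. Vegfa per Thbs1 was 0.193 in AAV-GSTA4 replicate 1 and 0.0722 to 0.0736 in the other 3, a gap of 0.988 of the range. Vegfa per 1000 RPE marker counts was 1.37 in the same library and 0.450, 0.546 and 0.592 in the others, a gap of 0.846 of the range. Both share the high Vegfa level of that library, 117 CPM. Groups of 3 were not examined this way, so the high Kdr of AAV-GFP replicate 3 is not among them.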

How the results depend on the processing

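Scaling by library totals instead of TMM shifted the median of all log2 fold changes from -0.07 to -0.37, and among genes at an unadjusted p-value under 0.05 the share higher in AAV-GSTA4 went from 44.3% to 11.2%; relative to the median, Thbs1 was then 1.34 and Kdr -1.42. The number of genes passing after adjustment, 0 with all libraries, was 1 with the replicate block by title number, 1 with the replicate block by library name, 1 with the rod covariate, 172 with DESeq2 and 146 with robust limma-voom, and 0 to 1 with each library left out; the cause was not tested. The count at an unadjusted p-value under 0.05, 1794, was 849 and 1148 with the replicate block by title and by library name and 3293 and 3277 with limma-voom without and with the robust option, and 1032 to 1988 with each library left out, lowest without AAV-GSTA4 replicate 3. Same-numbered libraries are not known to share more than a number, and a call lost under the block says nothing on the size of an effect.

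Thbs1 kept its direction in all 19 alternatives and passed in 2, DESeq2 (1.29) and robust limma-voom (1.13, adjusted p = 0.0456). The 10 genes gave 189 alternative values, of which 163 kept direction and side of the threshold, 1 kept direction with no p-value (Kdr in DESeq2, -1.27) and 23 changed sign, none of the 23 past the threshold. With the rod covariate Vegfa was 0.17, Pgf -0.16, Kdr 1.18 and Flt1 0.65, and with the RPE covariate Kdr was 0.97 and Flt1 0.57. With limma-voom, with and without the robust option, Kdr was 0.22 and Flt1 0.33. With the replicate block by library name Vegfb was 0.0802, Serpinf1 0.17 and Vegfc 1.75 (adjusted p = 0.654), and by title Serpinf1 was 0.0084. With each library left out, Vegfa ran from -0.55 to 0.0813, Vegfb from -0.21 to 0.0856, Kdr from -1.75 to 0.54, Flt1 from -0.88 to 0.38, Nrp1 from -0.57 to 0.007 and Serpinf1 from -0.41 to 0.27. A minimum of 10 counts in every library removed Vegfc. The 18 genes of the pathway lists named gave 342 alternative values with no change of sign and 3 newly past the threshold: Col4a3 with DESeq2 and robust limma-voom and Timp3 with DESeq2.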
